A study of Homo sapiens with 18 samples.

Results

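CDKN1A, the gene for the cyclin-dependent kinase inhibitor p21, was knocked down by CRISPR in hiF-T cells, and the libraries were compared with those of cells carrying a control guide. hiF-T is a line of fibroblast-like cells derived from human BJ skin fibroblasts, labelled wild type, in which the telomerase gene hTERT can be induced. All groups share that line and transgene. The comparison rests on 8 of the 18 libraries of the series: 4 with CDKN1A guides (guides 1 and 2) and 4 with control guides, titled backbone (guides 1 and 2), each guide with biological replicates 1 and 2. The other 10 libraries carry guides against KDM1A (4 libraries) or SPP1 (6 libraries), entered the model, and are used as 2 further knockdowns to set CDKN1A values against. How the guides lower an mRNA, the guide sequences, and whether replicates are separate transductions are unknown from the sources at hand. P-values therefore measure the spread between these libraries, which may be technical in part.

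p21 binds complexes of cyclins with CDK2 and CDK4 or CDK6, and the replication clamp PCNA, and so slows entry into and passage through the cell cycle. Its transcription is the best known output of the tumour suppressor p53. High p21 is a mark of senescent fibroblasts, and p21 and p53 are known as barriers to the reprogramming of fibroblasts to pluripotency.

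The libraries held 13306264 to 16202641 estimated counts in the CDKN1A group and 13389477 to 15694395 in the control group, with 1.79 to 2.36% of counts on mitochondrial genes. Values below are CPM (counts scaled to a common library size, with the TMM factor of each library), and log2 fold changes are from edgeR's quasi-likelihood fit with their standard error (SE). A gene was called, that is, counted as changed, at a Benjamini-Hochberg adjusted p under 0.05 over 13527 genes. Marker values in the rest of this paragraph are CPM by library total alone, without the TMM factor. The collagen gene COL1A1 measured 3990 to 4840 CPM in control and 3360 to 4450 in CDKN1A libraries, and the mesenchymal filament gene VIM 6700 to 6960 and 6790 to 7010. THY1, a surface marker of many fibroblasts, was at 0.464 CPM or less in all 8 libraries. Of the markers of other cells, 3 of 10 for keratinocytes, 2 of 7 for melanocytes and 2 of 11 for endothelial cells and leukocytes passed the filter on low counts. Summed over each list, keratinocyte markers measured 56.1 to 63.3 CPM in control and 55.2 to 58.3 CPM in CDKN1A libraries, melanocyte markers 2.06 to 3.3 and 2.9 to 3.47, and endothelial and leukocyte markers 134 to 154 and 138 to 144. Most of the first sum was KRT10 (52 to 61.5 CPM over the 8 libraries), and TEK, an endothelial receptor, stood at 65.7 to 88 CPM. KRT14 measured at most 1.55 CPM, PTPRC 0.246 to 0.59, PECAM1 at most 0.828 and PMEL at most 0.637, while KRT5, CD3E and DCT were under 0.1 CPM in each of the 8 libraries. Fewer cells of one kind and less RNA per cell cannot be told apart in bulk RNA.

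The targeted mRNA was lower in all 4 CDKN1A libraries. CDKN1A (ENSG00000124762, GRCh38 chromosome 6, 36676460 to 36687339, plus strand) measured 695 and 628 CPM with control guide 1 and 586 and 540 CPM with control guide 2. It measured 290 and 275 CPM with CDKN1A guide 1 and 435 and 427 CPM with CDKN1A guide 2. The groups did not overlap, and the libraries of guide 1 were the lowest of all 18. The fall was -0.78 ± 0.13 (log2, SE; adjusted p 0.00394), to 58.2% of control. In the deposited TPM, CDKN1A was at 507 ± 49.1 in control and 318 ± 78.5 in CDKN1A libraries (SD, n = 4 each). With guide 1 the log2 change was -1.11 and with guide 2 -0.50, a difference between guides of 0.61 (adjusted p 0.00485). KDM1A libraries measured 458 to 528 CPM and SPP1 libraries 411 to 543 CPM, all below the control libraries apart from 1 SPP1 library above the lowest control. CDKN1A libraries were lower than KDM1A libraries by a log2 of -0.45 (adjusted p 0.0212) and than SPP1 libraries by -0.46 (adjusted p 0.0142). Without control guide 1 the fall was -0.66 and did not pass (adjusted p 0.0833), and with the libraries of a guide summed it was -0.78 (adjusted p 0.316).

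Nearly all CDKN1A counts lay on 1 transcript. CDKN1A-201 held 97.0 ± 0.609% (SD, n = 4) of the gene's counts in control and 94.2 ± 1.20% (n = 4) in CDKN1A libraries. It measured 520 to 670 CPM in control and 261 to 406 CPM after knockdown, a log2 change of -0.81 ± 0.13 whose adjusted p over 53045 transcripts was 0.0625. The non-coding transcript CDKN1A-207 measured 8.95 to 13.5 CPM in control and 5.88 to 12.8 CPM in CDKN1A libraries (adjusted p 0.986). CDKN1A-202, CDKN1A-203, CDKN1A-206 and CDKN1A-208 stayed under 12 CPM in every control and CDKN1A library, overlapped between groups apart from CDKN1A-206, and had fitted changes of 0.47 to 1.28, none past the test. CDKN1A-206 measured 0.233 to 1.26 CPM in control and 1.54 to 1.99 CPM in CDKN1A libraries (adjusted p 0.780).

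The promoter of CDKN1A is shown because it belongs to the targeted gene. It is the RefSeq sequence on GRCh38.p14, chr6:36678464-36678763, plus strand, 250 bases before to 50 bases after the start site, with each GGGCGG, the letters bound by SP1, in capitals.
CDKN1A: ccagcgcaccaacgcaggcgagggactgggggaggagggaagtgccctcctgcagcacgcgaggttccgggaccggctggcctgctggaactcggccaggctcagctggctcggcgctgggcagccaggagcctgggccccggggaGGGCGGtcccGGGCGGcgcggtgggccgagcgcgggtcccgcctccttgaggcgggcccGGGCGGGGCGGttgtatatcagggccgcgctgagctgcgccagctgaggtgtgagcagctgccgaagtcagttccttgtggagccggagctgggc
GGGCGG or its reverse complement occurs 4 times, the last 2 matches overlapping, and is found in 44.6% of the 27305 RefSeq promoters of the same length and in 69.4% of the 10344 that belong to tested genes. Among promoters of called genes it occurs in 70.9% of 110 that rose and in 81.1% of 106 that fell. Whether these shares differ was not tested.

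Beside CDKN1A, 1 gene within 500 kb changed. RAB44, which encodes a large Rab GTPase, starts 21350 bases downstream of the CDKN1A start on the same strand (chromosome 6, 36697810 to 36733183) and was listed at 0 in all 4 control libraries. It held 16 and 21 counts (1.01 and 1.36 CPM) with CDKN1A guide 1, and 58 and 57 counts (4.09 and 4.33 CPM) with guide 2. Against a floor of 3 counts in each control library the mean was at least 11.6-fold higher (adjusted p 0.00119), and it passed the filter on low counts only through the CDKN1A libraries. The 10 KDM1A and SPP1 libraries measured 0 to 0.187 CPM. RAB44 was higher with the guide that lowered CDKN1A less, but the difference between guides was 1.82 (adjusted p 0.0820).

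The other neighbours that passed the filter (BRPF3, KCTD20, STK38, SRSF3, PPIL1, PIM1, MTCH1 and C6orf89) had log2 changes of -0.19 to 0.37, none past the test. KCTD20 measured 76.3 and 83.4 CPM with control guide 1 and 98.2 and 99.3 with control guide 2. It measured 96.1 and 90.8 CPM with CDKN1A guide 1 and 68.0 and 70 with CDKN1A guide 2, so the guide 2 libraries were the lowest of the 8. The change with guide 2 alone was -0.37 (adjusted p 0.0333) and with guide 1 0.07 (adjusted p 0.748); the difference between the guides had an adjusted p of 0.0650. The plot of these genes by library shows the order of the guides.

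**Figure D1:**
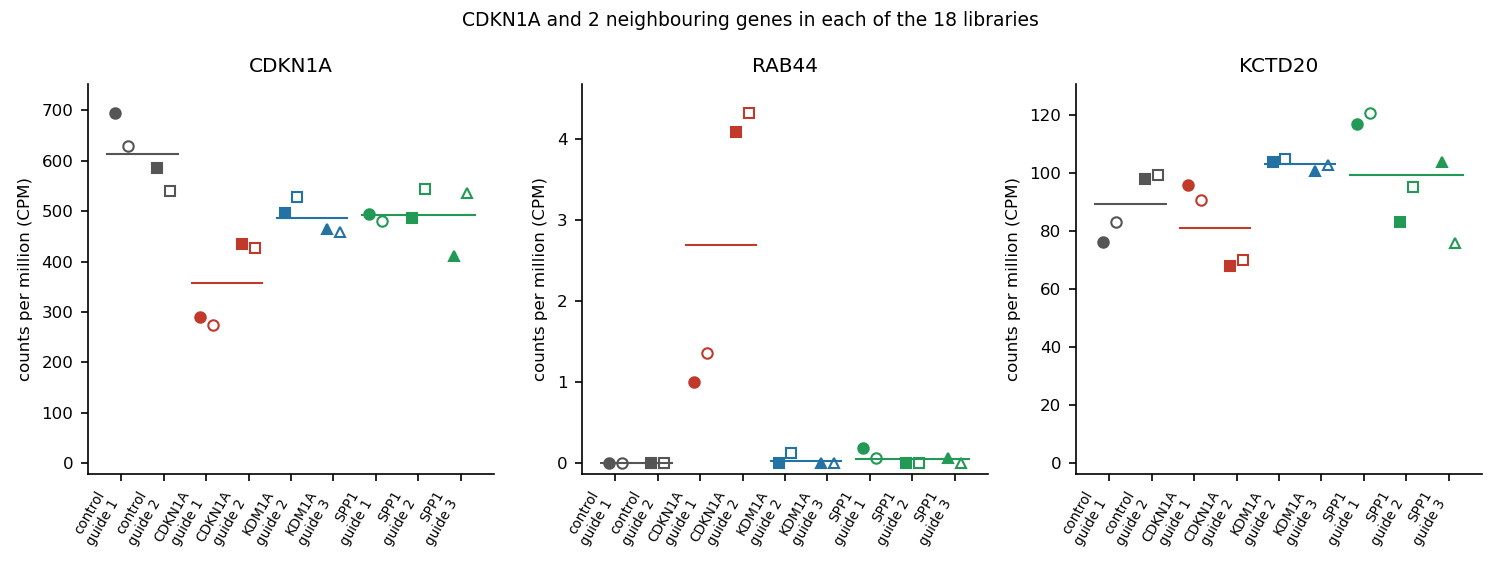
CPM of CDKN1A, RAB44 and KCTD20 in each of the 18 libraries, by group and guide (circles guide 1, squares guide 2, triangles guide 3; filled replicate 1, open replicate 2; line: group mean). CDKN1A is lowest with CDKN1A guide 1 (290 and 275 CPM), while RAB44 is highest with CDKN1A guide 2 (4.09 and 4.33 CPM).

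Across the transcriptome 271 of 13527 genes (2.00%) were called between CDKN1A and control libraries, of which 147 rose (1.09%) and 124 fell (0.917%). This fit counts the replicates of a guide as separate libraries. With the libraries of a guide summed, so that each guide counted once, 1 gene was called. Most changes were small: 207 of the 271 were under 1.5-fold and 23 were at least 2-fold, 15 rises and 8 falls. The median log2 change of all genes was -0.00, and 6620 of the 13527 had a positive value. The 4 CDKN1A libraries lay above or below all 4 control libraries in 265 of the 271, against 13.1% of all genes tested. How many genes passed depended on which libraries entered: 42 were called without control guide 1, 44 without CDKN1A guide 2, and 43 were called whichever of the 8 libraries was left out. Of the 271, 19 (14 rises and 5 falls) were called whichever of these libraries and whichever of the 4 guides was left out. They include the rises of CDH13, GASK1B, GDF15, INPP5D, CD70, TNFSF9, RAB44, CCNG2, CYFIP2, CAVIN2, SPATA18, ZNF300 and HMGB3 and the falls of FIBCD1, SUSD5, ADAMTS2, SELENOM and ARHGEF17. INPP5D, CD70 and RAB44 passed the filter on low counts only through the CDKN1A libraries.

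The rise of smallest p was CDH13, a cadherin held in the membrane by a lipid anchor and not by a transmembrane segment. It measured 54.2, 56.4, 49.5 and 52.4 CPM in control and 91.2, 86.5, 90.7 and 91.7 CPM in CDKN1A libraries. The CDKN1A libraries stood well apart from control and close to each other (0.76 ± 0.05, adjusted p 2.00e-07), and CDH13 was also higher than in KDM1A (1.06, adjusted p 6.72e-10) and SPP1 libraries (0.84, adjusted p 3.46e-09). The groups did not overlap.

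GASK1B, a Golgi protein, rose from 14.8 to 22 CPM in control to 34.7 to 40.5 CPM (1.02 ± 0.10, adjusted p 1.55e-05). INPP5D, the inositol phosphatase SHIP1, held 6 to 10 counts in a control library and 25 to 55 in a CDKN1A library (2.29 ± 0.30, adjusted p 7.83e-04), and passed the filter only through the latter. CCNG2, an unusual cyclin of resting cells, rose from 11.2 to 12.4 CPM to 17.4 to 20 CPM (0.64 ± 0.09). The libraries of the 2 groups did not overlap for any of these 3 genes. CYFIP2, a subunit of the actin-regulating WAVE complex, rose by 0.74, the zinc finger gene ZNF300 by 0.53, PIGK, an enzyme that attaches lipid anchors to proteins, by 0.50, and HMGB3, a chromatin protein, by 0.38. CYFIP2 (0.79) and ZNF300 (0.36) were higher than control in KDM1A libraries too. Larger rises of genes with low counts were those of the sulfotransferase gene GAL3ST4 (1.22), the membrane protein gene TMCC3 (1.10) and the zinc finger gene ZNF85 (1.07), whose 4 CDKN1A libraries all lay above control. TMCC3 was higher than control in KDM1A (0.93) and SPP1 libraries (0.72) too. In the deposited TPM, which divides by transcript length, TMCC3 stood at 1.88 ± 0.724 in control and 2.27 ± 0.672 in CDKN1A libraries (SD, n = 4 each).

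**Figure D2:**
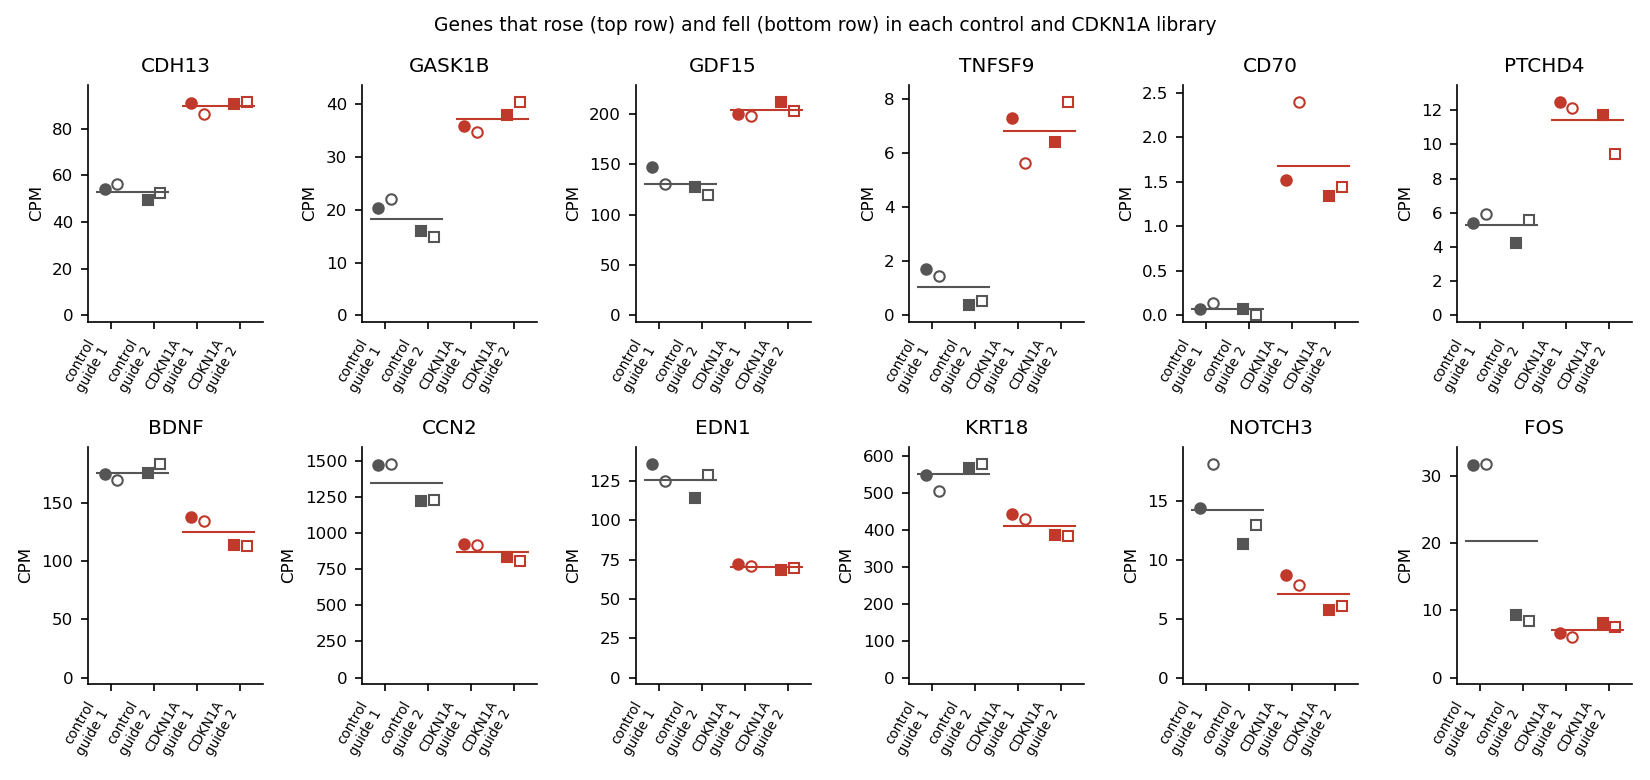
CPM of 6 genes that rose and 6 that fell, in each control (grey) and CDKN1A (red) library (circles guide 1, squares guide 2; filled replicate 1, open replicate 2; line: group mean). The 2 groups do not overlap for any of the 12 genes; FOS is high only with control guide 1 (31.7 and 31.8 CPM).

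Counts of called list members, here and below, stand beside 1.09% of all genes tested that rose and 0.917% that fell. Among targets of p53 other than CDKN1A, 9 of 32 measured rose and none fell. Their median log2 change was 0.23 with 25 positive values, beside a median of -0.00 for all genes. GDF15, a stress cytokine, measured 147, 130, 127 and 119 CPM in control and 200, 198, 212 and 203 CPM in CDKN1A libraries (0.64 ± 0.09, adjusted p 0.00139). It did not overlap between groups, and it was lower than control in KDM1A (-0.68) and SPP1 libraries (-0.78). PTCHD4, a patched-domain membrane protein, measured 4.23 to 5.92 CPM in control and 9.43 to 12.5 CPM after knockdown (1.12 ± 0.19, adjusted p 0.00780). SPATA18, which acts in mitochondrial quality control, rose from 6.87 to 7.18 CPM to 11.2 to 12 CPM (0.71 ± 0.11), while its deposited TPM was 5.27 ± 1.49 and 6.06 ± 0.559 (SD, n = 4 each). RRM2B, the p53-induced ribonucleotide reductase subunit, rose from 50.8 to 54.9 CPM to 74.0 to 77.2 CPM (0.53 ± 0.09). In each of these 4 genes every CDKN1A library lay above every control library.

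The remaining rises of the list were TP53INP1 (0.53), FDXR (0.50), the DNA damage recognition gene DDB2 (0.32), PERP (0.27) and the death receptor gene TNFRSF10B (0.23). MDM2, which encodes the main ubiquitin ligase of p53, had a log2 change of 0.27 (adjusted p 0.174), CCNG1 0.27 (0.0612) and FAS 0.31 (0.0755), none past the test. SERTAD1 (-0.22) and GADD45A (-0.18) were the lowest of the list and did not pass. Without control guide 1, without control guide 2, and without either CDKN1A guide, 4 to 6 members rose and none fell. With a transcript length offset 3 rose, and with the libraries of a guide summed 0.

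The promoter of PTCHD4 is shown because it carries the letters of a p53 response element, searched for after the called genes were known. It is RefSeq chr6:48111148-48111447 on GRCh38.p14, minus strand, with the p53 half-site consensus in capitals.
PTCHD4: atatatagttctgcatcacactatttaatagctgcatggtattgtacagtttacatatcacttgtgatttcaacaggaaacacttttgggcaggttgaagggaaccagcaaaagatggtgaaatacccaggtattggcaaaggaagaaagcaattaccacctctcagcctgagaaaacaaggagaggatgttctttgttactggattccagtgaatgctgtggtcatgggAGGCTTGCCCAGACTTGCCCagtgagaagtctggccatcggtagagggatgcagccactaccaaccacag
The 2 half-sites adjoin each other and begin 20 and 10 bases before the RefSeq start site. The annotation used for the counts starts PTCHD4 at 48068689, downstream of and outside the sequence shown. Which start site these cells use was not tested. A pair of half-sites at most 13 bases apart occurs in 8 of the 27305 promoters (0.0293%) and a single half-site in 6.54%. Among the 10344 promoters of tested genes these shares are 0.029% (3 promoters) and 5.40%. Of the 27 promoters found for the p53 list, 1 (3.7%) holds such a pair. Among promoters of called genes a half-site occurs in 5.45% of 110 that rose and in 6.6% of 106 that fell. A match describes letters and is not evidence of binding.

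Of the partners of p21 and the genes of its degradation, 1 of 18 measured fell and none rose (median -0.00), beside 2.00% of all genes called: CCND3, which encodes cyclin D3, went from 72.6 to 82.1 CPM to 57.9 to 66.6 CPM (-0.33 ± 0.07, adjusted p 0.0244). CDK2 (-0.04), CDK4 (0.08), CDK6 (-0.18), PCNA (0.10) and CCND1 (-0.06) did not pass. Of the other CDK inhibitors and pocket proteins, 1 of 10 rose (median 0.20): RBL2, the pocket protein p130 of resting cells, went from 31.5 to 38.7 CPM to 42.8 to 44.8 CPM (0.33 ± 0.07, adjusted p 0.0267). CDKN1B, which encodes p27, had 0.27 (adjusted p 0.0770). No member of either list passed when any 1 of the 4 guides was left out. No member of the G1/S and DNA replication list passed in either direction (24 measured, median 0.04). Its member of smallest p was RRM1, at 178 to 191 CPM in control and 193 to 211 CPM after knockdown (adjusted p 0.128).

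Of 24 measured genes of G2 and mitosis, 3 rose and none fell (median 0.12, 21 positive). CENPF, a kinetochore protein, measured 292, 325, 295 and 285 CPM in control and 366, 368, 359 and 361 CPM in CDKN1A libraries (0.28 ± 0.06, adjusted p 0.0163). FOXM1, the transcription factor of mitotic genes, rose from 155 to 163 CPM to 186 to 195 CPM (0.24 ± 0.05, adjusted p 0.0202). CCNB2, which encodes cyclin B2, rose from 48.3 to 60.1 CPM to 61.4 to 67.1 CPM (0.29 ± 0.07, adjusted p 0.0465). The groups did not overlap for any of the 3, and the changes were at most 1.22-fold. The proliferation marker MKI67 had 0.10 (adjusted p 0.511). CENPF, FOXM1 and CCNB2 did not pass when any 1 of the 4 guides was left out. No member of this list passed without control guide 1, without CDKN1A guide 1 or without CDKN1A guide 2.

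The promoters of CCNB2 and CENPF are shown because both carry TTTGAA, the cell cycle homology region through which the DREAM and MuvB complexes act on mitotic genes, and p21 is known to feed into that control. They are RefSeq sequences on GRCh38.p14, chr15:59104896-59105195 and chr1:214602945-214603244, both on the plus strand, with TTTGAA in capitals.
CCNB2: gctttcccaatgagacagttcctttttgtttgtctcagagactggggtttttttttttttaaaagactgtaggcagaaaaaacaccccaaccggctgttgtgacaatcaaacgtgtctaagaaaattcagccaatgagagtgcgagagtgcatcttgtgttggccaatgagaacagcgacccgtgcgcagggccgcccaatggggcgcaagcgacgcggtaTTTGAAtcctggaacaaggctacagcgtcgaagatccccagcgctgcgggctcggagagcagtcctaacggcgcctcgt
CENPF: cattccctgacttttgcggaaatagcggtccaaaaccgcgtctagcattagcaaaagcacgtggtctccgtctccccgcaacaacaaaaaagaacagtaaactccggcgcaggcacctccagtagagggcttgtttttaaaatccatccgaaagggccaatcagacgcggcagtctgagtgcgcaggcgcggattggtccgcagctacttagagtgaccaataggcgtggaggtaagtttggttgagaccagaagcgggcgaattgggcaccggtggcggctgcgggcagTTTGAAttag
TTTGAA or its reverse complement occurs in 15.4% of the 27305 promoters and in 9.95% of the 10344 that belong to tested genes. In CCNB2 it begins 29 bases before the start site and in CENPF 40 bases after it. Of the called genes 79.7% had a promoter in the RefSeq set. Among these, the letters occur in 18.2% of 110 that rose and in 5.66% of 106 that fell. Whether these shares differ from that of tested genes was not tested.

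**Figure D3:**
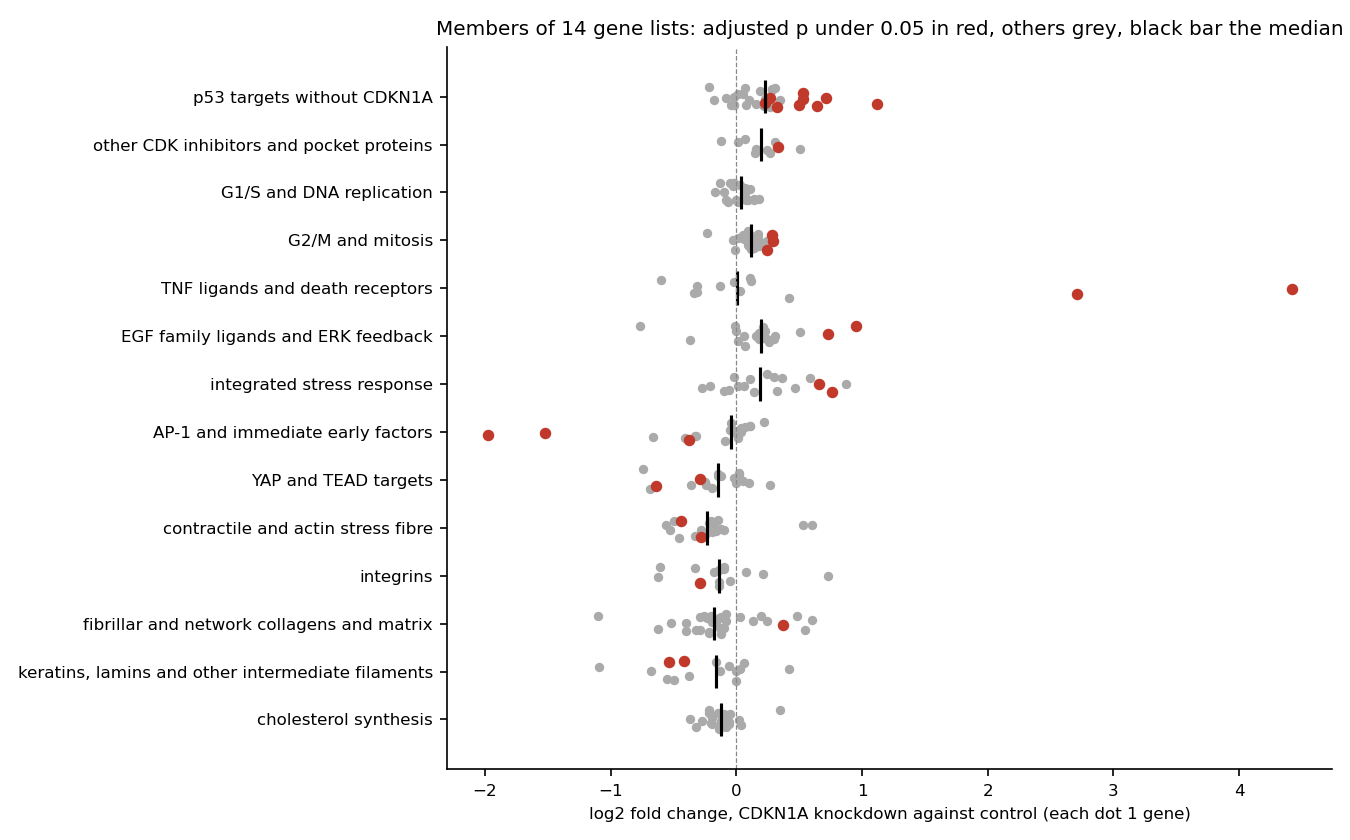
Log2 fold change of each measured member of 14 gene lists (1 dot a gene; red: adjusted p under 0.05; black bar: list median; dashed line: 0). The p53 targets lie mostly to the right of 0 (median 0.23) and the contractile genes mostly to the left (median -0.23), while the members of the G1/S list lie close to 0.

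CCN2, the matricellular protein CTGF and a standard target of the coactivator YAP with TEAD factors, measured 1470, 1480, 1220 and 1230 CPM in control and 926, 915, 832 and 810 CPM after knockdown (-0.64 ± 0.13, adjusted p 0.0166). It was lower than control in KDM1A (-0.42) and SPP1 libraries (-0.62), and without control guide 1 the fall was -0.50 (adjusted p 0.189). Of the YAP and TEAD targets 2 of 18 fell and none rose (median -0.15). The other was ARHGEF17, a guanine nucleotide exchange factor, from 106 to 121 CPM to 88.8 to 96.5 CPM (-0.29 ± 0.04, adjusted p 0.00179). ARHGEF17 was lower than control in SPP1 libraries too (-0.16). CCN1 (-0.36) and ANKRD1 (-0.69) did not pass.

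The promoter of CCN2 is shown because GGAATG, the letters bound by TEAD factors, occurs in it 3 times. It is RefSeq chr6:131951323-131951622 on GRCh38.p14, minus strand, with GGAATG in capitals.
CCN2: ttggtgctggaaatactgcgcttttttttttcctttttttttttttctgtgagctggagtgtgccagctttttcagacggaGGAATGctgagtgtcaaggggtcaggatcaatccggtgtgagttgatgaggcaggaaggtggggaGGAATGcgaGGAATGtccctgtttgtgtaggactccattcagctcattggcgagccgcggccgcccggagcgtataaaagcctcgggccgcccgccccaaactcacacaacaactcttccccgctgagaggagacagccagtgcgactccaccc
The matches begin 169, 104 and 95 bases before the start site. GGAATG or its reverse complement occurs in 14% of the 27305 promoters and in 10.9% of the 10344 that belong to tested genes. Among promoters of called genes it occurs in 11.8% of 110 that rose and in 14.2% of 106 that fell.

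Of 22 measured contractile and actin stress fibre genes 2 fell and none rose (median -0.23, 2 positive). CNN2, the actin-binding calponin 2, fell from 294 to 352 CPM to 233 to 256 CPM (-0.44 ± 0.10, adjusted p 0.0370), and ZYX, the focal adhesion protein zyxin, from 308 to 378 CPM to 269 to 303 CPM (-0.28 ± 0.07, adjusted p 0.0448). MYL9 (-0.53), TPM1 (-0.46), TAGLN (-0.33) and ACTA2 (-0.50) did not pass, and neither did CNN1 (0.60), the highest of the list. No member passed without control guide 1, without CDKN1A guide 1 or without CDKN1A guide 2, while 10 fell in a fit of only the 8 control and CDKN1A libraries.

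ITGA5, the fibronectin receptor subunit, was the only one of 14 integrins to fall (532 to 575 CPM against 447 to 465 CPM, -0.29 ± 0.07, adjusted p 0.0357; none rose, list median -0.14). The keratin pair KRT18 and KRT8 fell, 2 of 15 intermediate filament genes with none rising (median -0.16). KRT18 measured 549, 505, 567 and 578 CPM in control and 443, 430, 385 and 382 CPM in CDKN1A libraries (-0.42 ± 0.07, adjusted p 0.00816), without overlap. KRT8 fell from 81.5 to 84.9 CPM to 55.2 to 58.2 CPM (-0.54 ± 0.11, adjusted p 0.0176). No integrin passed without control guide 1 or without either CDKN1A guide, and of the filament genes 1 fell without control guide 1 and without CDKN1A guide 1, and 0 without control guide 2 and without CDKN1A guide 2. ITGA5 and KRT8 did not pass when any 1 of the 4 guides was left out. Lamin A (LMNA, -0.06) and VIM (-0.00) did not pass in the main fit. KRT8 and KRT18 have many processed pseudogenes, so their counts are less certain where reads could be divided among copies.

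Of 32 collagens and matrix genes 1 rose and none fell (median -0.18): FBN2, which encodes fibrillin-2, went from 324 to 420 CPM to 477 to 501 CPM (0.37 ± 0.09, adjusted p 0.0457), and no member passed without control guide 1 or without CDKN1A guide 2. CAVIN2, a coat protein of caveolae, was the only one of 8 caveolin and cavin genes to change. It rose from 5.44 to 7.46 CPM to 10.4 to 16.3 CPM (0.99 ± 0.15, adjusted p 0.00179; list median -0.08), while CAV1 had 0.01 (adjusted p 0.972). ADAMTS2, the protease that trims procollagen and no member of that list, fell from 34.0 to 38.5 CPM to 24.4 to 25.1 CPM (-0.56 ± 0.08, adjusted p 0.00119). LAMA5, a laminin chain also outside the list, fell from 54.0 to 73.0 CPM to 35.2 to 41.7 CPM (-0.67 ± 0.12). ADAMTS2 was lower than control in KDM1A libraries too (-0.50).

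Among the immediate early genes, 3 of 19 fell and none rose (median -0.04), and FOS and FOSB rest on 1 control guide. FOS, the AP-1 subunit, measured 31.7 and 31.8 CPM with control guide 1, 9.32 and 8.47 CPM with control guide 2, and 6.63, 6.10, 8.11 and 7.53 CPM in CDKN1A libraries (-1.52 ± 0.32, adjusted p 0.0209). FOSB measured 23.1 and 26.8 CPM with control guide 1, 5.15 and 5.90 CPM with control guide 2, and 3.24 to 4.56 CPM in CDKN1A libraries (-1.98 ± 0.46, adjusted p 0.0324). Only the libraries of control guide 1 were far from the rest. KLF2, a flow-responsive transcription factor, measured 111 to 122 CPM in control and 84.1 to 94.2 CPM after knockdown (-0.38 ± 0.09, adjusted p 0.0354). KLF2 was lower than control in SPP1 libraries too (-0.64). FOS and FOSB were lower than control in both KDM1A (-1.67 and -2.49) and SPP1 libraries (-1.01 and -1.48). Without control guide 1, FOS had a log2 change of -0.33 (adjusted p 0.380), FOSB -0.51 (adjusted p 0.658) and KLF2 -0.42 (adjusted p 0.133). No member passed without either CDKN1A guide, and KLF2 did not pass without control guide 2.

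TNFSF9, the co-stimulatory ligand 4-1BBL, measured 1.73, 1.46, 0.396 and 0.544 CPM in control and 7.32, 5.64, 6.42 and 7.91 CPM after knockdown (2.71 ± 0.39, adjusted p 0.00125). CD70, the ligand of CD27, held 1, 2, 1 and 0 counts in control and 24, 37, 19 and 19 counts in CDKN1A libraries (4.42 ± 0.60, adjusted p 0.00110), and passed the filter on low counts only through the CDKN1A libraries. Both were above every control in 4 of 4 libraries and also above the KDM1A and SPP1 libraries (adjusted p at most 0.00150). They were the 2 rises among 12 TNF ligands and receptors, of which none fell (median 0.01).

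EDN1, the vasoconstrictor peptide endothelin-1, measured 136, 125, 114 and 129 CPM in control and 72.2, 71.2, 68.6 and 70 CPM after knockdown (-0.84 ± 0.18, adjusted p 0.0238), without overlap. It was lower still in SPP1 libraries (-1.16 against control). In KDM1A libraries it measured 143 and 150 CPM with guide 2 and 77.0 and 78.8 CPM with guide 3. Without control guide 1 the fall of EDN1 was -0.79 (adjusted p 0.163), and it did not pass when any other of the 4 guides was left out. In the same list of 15, UNC5B, a netrin receptor, and ANGPTL4, an inhibitor of lipoprotein lipase, rose (median 0.13). UNC5B went from 2.07 to 3.27 CPM to 4.61 and 4.09 CPM with guide 1 and 12.2 and 12.6 CPM with guide 2 (1.68 ± 0.35, adjusted p 0.0178). ANGPTL4 went from 11 to 17.8 CPM to 21.5 to 29.8 CPM (0.78 ± 0.16, adjusted p 0.0202), and was higher than control in KDM1A (0.54) and SPP1 libraries (0.55) too. No member of the list passed without control guide 1 or without CDKN1A guide 2.

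In the IGF list 2 of 9 rose and 2 fell (median -0.01). PAPPA, the protease that cleaves IGFBP4, rose from 85.8 to 122 CPM to 159 to 174 CPM (0.62 ± 0.12, adjusted p 0.0135), and its relative PAPPA2 from 0.488 to 2.17 CPM to 2.98 to 7.41 CPM (1.94 ± 0.40, adjusted p 0.0176). In the deposited TPM, PAPPA2 was at 0.804 ± 0.764 in control and 1.12 ± 0.796 in CDKN1A libraries (SD, n = 4 each), a difference within its spread. IGFBP4 itself, an IGF-binding protein, fell from 493 to 598 CPM to 387 to 446 CPM (-0.40 ± 0.09, adjusted p 0.0220). IRS1, the adaptor of the insulin and IGF receptors, fell from 223 to 271 CPM to 176 to 198 CPM (-0.39 ± 0.06, adjusted p 0.00437). No control and CDKN1A libraries overlapped in CPM for these 4 genes. PAPPA was higher than control in KDM1A libraries too (0.39). No member of the list passed without control guide 1 or without CDKN1A guide 2.

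Of the EGF ligands and ERK feedback genes 2 of 20 rose and none fell (median 0.19). EPGN, the ligand epigen, went from 1.87 to 4.74 CPM to 5.12 to 6.70 CPM (0.95 ± 0.23, adjusted p 0.0412). ETV1, an ERK-dependent ETS factor, went from 11.9 to 15.3 CPM to 21.7 to 25.4 CPM (0.73 ± 0.19, adjusted p 0.0499). Both were higher than control in KDM1A (2.26 and 0.72) and SPP1 libraries too (1.41 and 0.77), and EPGN was lower in CDKN1A than in KDM1A libraries (-1.31). ETV1 did not pass when any 1 of the 4 guides was left out. Of the cytokines and growth factors of the senescence secretome 1 of 20 fell and none rose (median 0.10). It was IL11, which went from 65 to 75.6 CPM to 43.2 to 46.8 CPM (-0.65 ± 0.13, adjusted p 0.0140). IL11 was lower than control in KDM1A libraries too (-0.82). IL6 (0.35), CXCL8 (0.13) and LIF (-0.02) did not pass. NOTCH3, a receptor of vascular smooth muscle, was the only one of 13 NOTCH pathway genes to change. It fell from 11.4 to 18.2 CPM to 5.72 to 8.71 CPM (-1.0 ± 0.18, adjusted p 0.00853; list median 0.06), and HES1 (1.33) and HEY1 (1.42) did not pass. Without control guide 1 or without CDKN1A guide 2, no member of the EGF or NOTCH list passed, and without CDKN1A guide 1 none of the EGF list. In the senescence list 1 member rose and none fell without CDKN1A guide 2, and 0 passed without control guide 1.

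Of the integrated stress response 2 of 18 rose and none fell (median 0.19). TRIB3, a pseudokinase of that response, went from 20.8 to 25.2 CPM to 29.2 and 28.9 CPM with guide 1 and 49.5 and 49.4 CPM with guide 2 (0.76 ± 0.15, adjusted p 0.0153). VLDLR, a lipoprotein receptor, rose by 0.66 ± 0.14 (adjusted p 0.0220), and ATF4, the factor at its centre, had 0.01. Without CDKN1A guide 1 the list had 6 rises (median 0.35), and without CDKN1A guide 2 it had 0 (median 0.03). Of the small heat shock proteins and chaperones 2 of 14 fell and none rose (median -0.06). CRYAB, a small chaperone, measured 11.6 to 18.4 CPM in control and 2.74 to 6.81 CPM after knockdown (-1.69 ± 0.32, adjusted p 0.0128), and HSPB1 312 to 361 CPM and 227 to 273 CPM (-0.38 ± 0.10, adjusted p 0.0467). In that list 1 member rose and none fell without control guide 2 (median 0.07), and 0 passed without CDKN1A guide 2. HSPB1 did not pass when any 1 of the 4 guides was left out.

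No member passed edgeR's test in 6 further lists: NRF2 and iron storage (15 measured, median 0.09), cholesterol synthesis (23, -0.12), type I interferon response (13, 0.05), mitochondrially encoded mRNAs (13, 0.06), pluripotency and telomerase (8, -0.03) and fibroblast markers (11, -0.13). Their members of smallest p were TXNRD1 (0.23, adjusted p 0.110), DHCR7 (-0.37, 0.0514), IRF7 (2.45, 0.254), MT-CO1 (0.08, 0.589), TERT (-0.30, 0.0581) and S100A4 (-0.89, 0.0702). TERT, whose counts include the transgene of this line, measured 2540 to 2880 CPM in control and 1970 to 2430 CPM in CDKN1A libraries. The groups did not overlap, and with guide 2 alone the change passed (-0.41, adjusted p 0.00111). IRF7 ranged from 0 to 2.97 CPM within the CDKN1A libraries. No keratinocyte, melanocyte, endothelial or leukocyte marker passed (KRT10 -0.09, MITF 0.30, TEK -0.19). Of 232 zinc finger genes on chromosome 19, ZNF85 rose and ZNF324 fell (-0.42, adjusted p 0.0480), with a median of 0.04. These calls stand beside 2.00% of all genes called, and 0 of the 232 passed when any 1 of the 4 guides was left out. Without CDKN1A guide 1, 2 members of the NRF2 list rose, and without control guide 2, 2 fibroblast markers fell.

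Among genes of neurons, BDNF and SCG2 fell and SCN2A rose (11 measured, median 0.10). BDNF, the neurotrophin, measured 175, 170, 176 and 184 CPM in control, 138 and 135 CPM with CDKN1A guide 1 and 114 and 113 CPM with guide 2 (-0.49 ± 0.08, adjusted p 0.00607). The 2 guides differed by -0.27 (adjusted p 0.0156), BDNF being lower with the guide that lowered CDKN1A less. SCG2, a granin of secretory granules, went from 1.38 to 1.98 CPM to 0.423 to 1.14 CPM (-1.14 ± 0.29, adjusted p 0.0499), and SCN2A, a sodium channel, rose by 0.61 ± 0.15 (adjusted p 0.0389). SCN2A was higher than control in KDM1A libraries too (1.33). With 1 guide left out the list had 1 call: a rise without CDKN1A guide 2 and a fall without each of the other 3. SCG2 was not among these calls.

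Falls outside the lists included FIBCD1, a receptor for acetylated sugars, from 4.81 to 6.14 CPM to 2.21 to 2.96 CPM (-1.09 ± 0.14, adjusted p 7.83e-04). SUSD5, a membrane protein with a sushi domain, went from 21.4 to 26.2 CPM to 14.8 to 16.1 CPM (-0.66 ± 0.09), and SELENOM, a selenoprotein of the endoplasmic reticulum, from 27.3 to 35.7 CPM to 18.6 to 20.6 CPM (-0.60 ± 0.09). The groups did not overlap for these genes, and SUSD5 was lower than control in KDM1A libraries too (-0.78). NLRP1, an inflammasome sensor (-0.40), GBP1, a guanylate-binding GTPase (-0.47), and FHL3, a LIM-domain protein (-0.46), also fell. So did TINAGL1, a matrix glycoprotein (-0.83), and the low-count genes SLFNL1 (-1.03), MEGF6 (-1.02) and ENSG00000215861 (-0.99). SLFNL1 and MEGF6 were called in 0 of the 8 fits without 1 library and 0 of the 4 without 1 guide. TINAGL1 was called in 1 of each kind. ENSG00000215861, an unprocessed pseudogene, did not pass with guide 1 (adjusted p 0.16). FHL3 was lower than control in KDM1A libraries too (-0.47). TINAGL1 (-0.93) and MEGF6 (-0.85) were lower in SPP1 libraries, and SLFNL1 in both KDM1A (-0.86) and SPP1 libraries (-1.17). In the deposited TPM, MEGF6 was at 1.68 ± 0.144 in control and 1.66 ± 0.802 in CDKN1A libraries (SD, n = 4 each), and its transcript MEGF6-202 held 51.4% of the gene's counts in control and 34% after knockdown.

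Each CDKN1A guide was set against all 4 control libraries in a fit with 1 coefficient per guide, where only the replicates of a guide give the spread. Guide 1 changed 635 genes (4.69%) and guide 2 changed 841 (6.22%). The same 4 control libraries serve both guides, which ties the 2 sets of calls. Of the 271 genes called for both guides together, 214 were called with guide 1, 233 with guide 2 and 182 with each. All 271 had the same sign with each guide, which calling them on both guides together makes likely. The guides differed from each other in 173 genes (1.28%), of which 14 were among the 271.

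Of the named genes, the guides differed in CDKN1A, BDNF, UNC5B and TRIB3, among others. UNC5B was at 0.75 with guide 1 and 2.26 with guide 2 (difference 1.51, adjusted p 0.00442), and TRIB3 at 0.33 and 1.10 (difference 0.77, adjusted p 9.18e-04). Both were thus higher with guide 2, which left more CDKN1A mRNA.

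**Figure D4:**
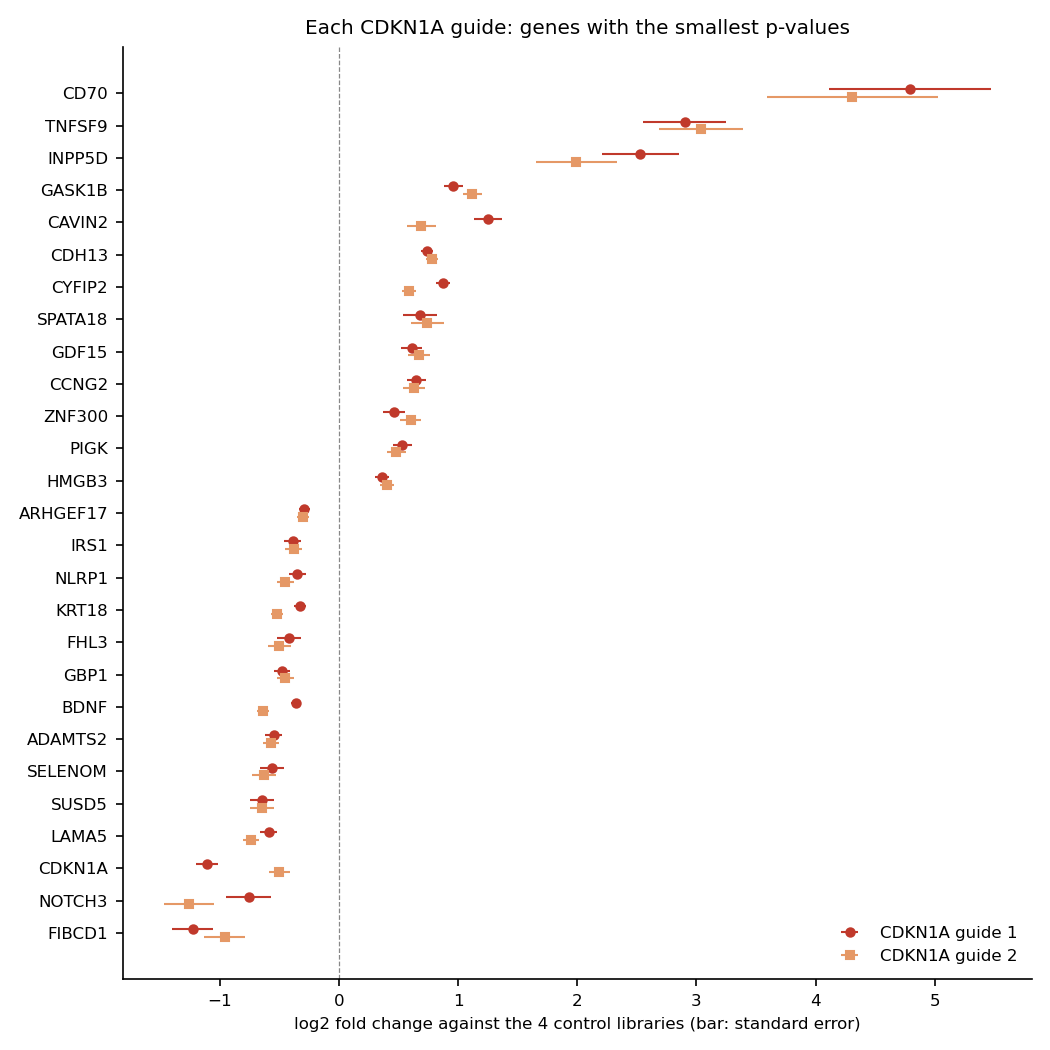
Log2 fold change (± SE) of each CDKN1A guide against the 4 control libraries, for the genes of smallest p among rises and falls (some genes, RAB44 at 0 in control among them, are left out). CDH13 and SUSD5 lie at nearly the same value with each guide, while CDKN1A (-1.11 and -0.50) and BDNF (-0.36 and -0.64) differ.

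The same model compared the CDKN1A libraries with the other knockdowns. They differed from KDM1A libraries in 2022 genes (14.9%) and from SPP1 libraries in 1634 (12.1%). Of the 271 genes changed against control, 156 also differed from KDM1A libraries in the same direction, 173 from SPP1 libraries, and 125 from both (71 rises and 54 falls). CDH13, GASK1B, INPP5D, CD70, TNFSF9, CCNG2, GDF15, PTCHD4 and RRM2B were higher than in both. FIBCD1, SELENOM, IRS1, IGFBP4, NOTCH3 and CRYAB were lower than in both. The falls of CCN2, FOS and FOSB did not pass against either, nor did the rises of TMCC3, ANGPTL4 and ETV1.

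At the level of single transcripts 7 of 53045 were called (0.0132%), 6 upward and 1 downward, and 3337 had an unadjusted p under 0.05. The spread between libraries was much larger here: the biological coefficient of variation was 68.7%, against 9.32% for genes. Both major transcripts of CDH13 rose. CDH13-201 measured 21.7 to 28.7 CPM in control and 45.2 to 50.2 CPM after knockdown (0.97, adjusted p 0.0177), and CDH13-209 19.9 to 21.9 CPM and 36.5 to 40.9 CPM (0.87, adjusted p 1.24e-04). Neither group overlapped the other. GDF15-201 (0.65) and SUSD5-201 (-0.64), each holding at least 99.4% of its gene's counts, followed their genes.

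TMCC3-201 and PCM1-212 held a larger mean share of their genes' counts, but neither gene passed the 2 tests of unequal change described below. For PCM1 the adjusted p was 0.245 in edgeR's test for differential splicing and 0.282 in the limma test on shares. TMCC3-201 rose from 0.275 to 0.665 CPM to 1.99 to 2.43 CPM (2.20, adjusted p 0.0492), from 17.4% to 39.9% of its gene's counts. PCM1-212, of the gene of a centriolar satellite protein that was itself not called (adjusted p 0.447), rose from 29 to 35.6 CPM to 51.8 to 62.2 CPM (0.80, adjusted p 0.0393), from 25.2% to 40.5% of the gene's counts. Both were above control in the other knockdowns too, TMCC3-201 at 1.45 to 3.58 CPM in KDM1A and 2.29 to 3.54 CPM in SPP1 libraries, and PCM1-212 at 43.6 to 55.4 and 37.8 to 55.1 CPM. Across the called genes, the leading transcript moved in the direction of its gene in 262 of the 267 with a tested transcript. That transcript held a median of 80% of its gene's counts in control, which makes the same direction likely beforehand. Exceptions included GAL3ST4-203 (-2.73, its gene 1.22) and ZNF85-201 (-0.47, its gene 1.07), neither past the test.

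The next transcripts by p whose gene was not called did not pass. ZFP90-201 was at 0 in the 4 control libraries and at 1.84 to 4.31 CPM in CDKN1A libraries (adjusted p 0.0578), and at 0.255 to 3.98 CPM in the KDM1A and SPP1 libraries. HMGB1-202 measured 167 to 198 CPM and 225 to 249 CPM (0.37, adjusted p 0.0687), and PARVB-203 14 to 16.6 CPM and 9.02 to 11.6 CPM (-0.53, adjusted p 0.141). MBNL1-202 (-0.71), NSD2-208 (0.92), RGS4-210 (1.55), PILRB-203, PTK2-246 and TTPAL-204, the last 3 at 0 in at least 3 control libraries, had adjusted p-values of 0.119 to 0.141. The last 3 were above 0 in every KDM1A and SPP1 library apart from 1 SPP1 library for TTPAL-204.

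**Figure D5:**
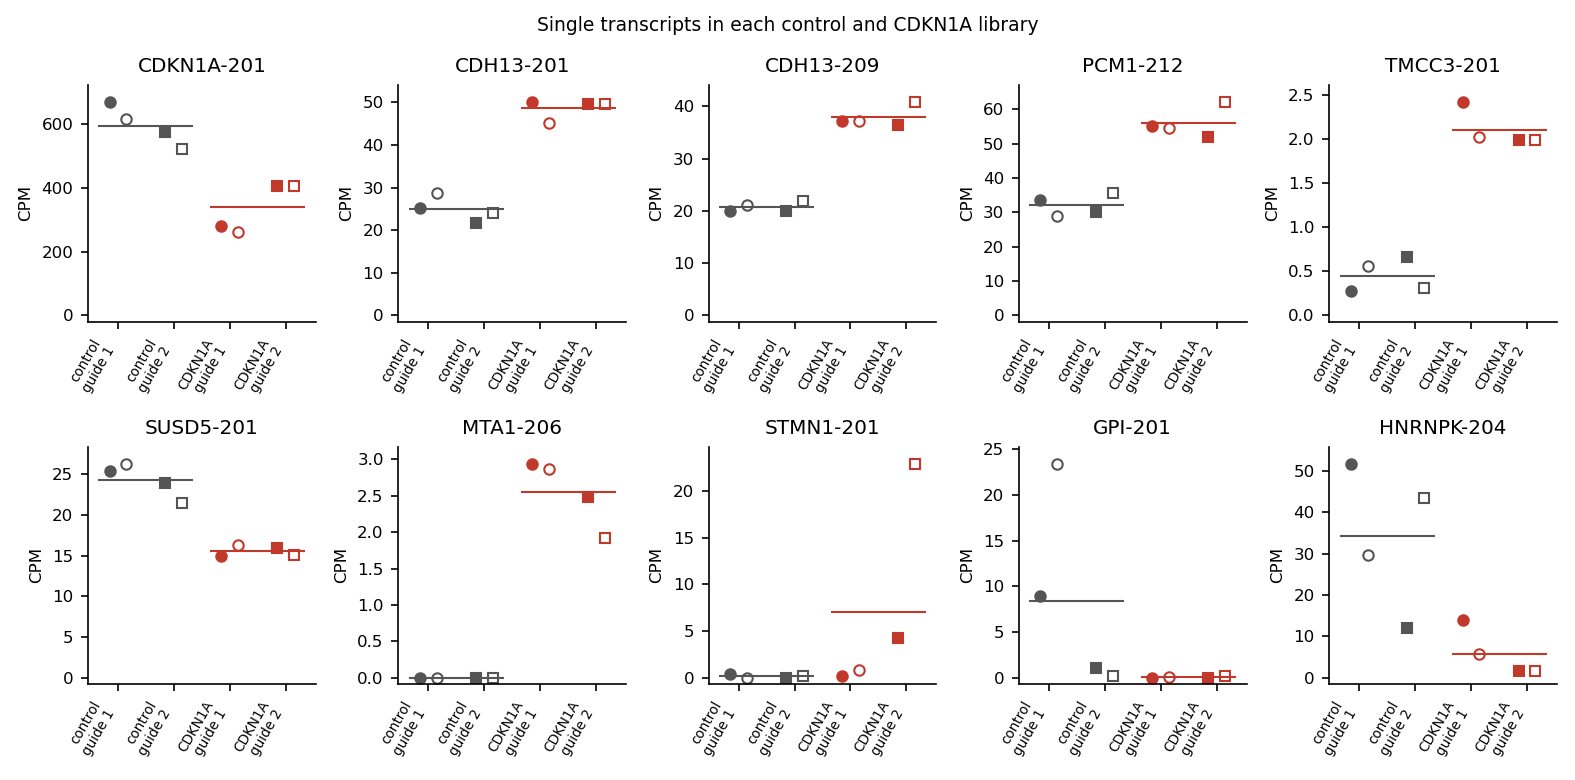
CPM of 10 transcripts in each control (grey) and CDKN1A (red) library (circles guide 1, squares guide 2; filled replicate 1, open replicate 2; line: group mean). CDH13-201, CDH13-209 and PCM1-212 do not overlap between groups (CDH13-201: 21.7 to 28.7 against 45.2 to 50.2 CPM), while STMN1-201, GPI-201 and HNRNPK-204 vary several-fold between libraries of the same group.

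Whether a gene's transcripts changed unequally was tested in 9915 genes. The test for differential splicing in edgeR called 166 (1.67%), 4 of them among the called genes, but on simulated data with known changes most of its calls were false, so its calls are not taken as changes. In 162 of the 166 the leading transcript rounded to 0 counts in at least 1 of the 8 libraries, and in 144 it held under 10% of the gene's counts in both groups. STMN1-201, first by p, measured 0 to 0.412 CPM in control and 0.128, 0.849, 4.27 and 22.9 CPM in CDKN1A libraries. GPI-201 measured 0.156 to 23.4 CPM in control, HNRNPK-204 12 to 51.7 CPM and HSPA8-212 4.75 to 43.4 CPM, against 0 to 0.153, 1.53 to 14 and 0 to 12.8 CPM in CDKN1A libraries. The other genes among the first 15 were ARL6IP1, CCT5, SPTAN1, SMAD4, TUBGCP6, CAPN1, PTMA, POFUT2, SP140L, DDX39A and RBPJ. With transcripts of at least 10% of their gene's counts, the same test called 0 genes.

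A limma test on the share of each transcript in its gene, chosen after seeing the data and with few false calls on simulated data, called 2 of 9915 genes (0.0202%). The simulated counts were drawn for each transcript alone, and changes were placed only in transcripts more abundant than those named here. The simulation therefore cannot settle whether calls on transcripts this low are true. MTA1-206, of the gene of a chromatin remodelling subunit, was at 0 in the 4 control, 4 KDM1A and 6 SPP1 libraries and measured 2.94, 2.87, 2.49 and 1.92 CPM in the CDKN1A libraries, 2.90% of the gene's counts there (gene adjusted p 8.70e-07). It passed the filter on low counts only through the CDKN1A libraries. The MTA1 gene as a whole was not called (-0.02, adjusted p 0.891). SCAPER-203 measured 0.532 to 2.88 CPM in control and 0 in the CDKN1A libraries (gene adjusted p 0.0423). It was also at 0 in the KDM1A libraries and at 0 to 0.764 CPM in the SPP1 libraries, so its absence was not particular to the CDKN1A knockdown. The division of reads among similar transcripts is an estimate of kallisto, and its uncertainty is not in these values.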

How the data were processed

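Poly(A) RNA of hiF-T cells was sequenced in 18 libraries. The deposited files of the authors hold, for each transcript, estimated counts, TPM and an effective length. They were made with kallisto against GRCh38 (hg38), per the submitters' processing notes, and for versions, strandedness and trimming nothing is stated in the labels. Estimated counts of 169797 of 188753 transcripts (90.0%) were matched by Ensembl transcript ID and summed over 35579 genes, then rounded to whole numbers; unmatched transcripts held 2.49 to 2.62% of counts. The deposited TPM were used for the levels of CDKN1A, TMCC3, SPATA18, PAPPA2 and MEGF6 given as TPM. With the effective lengths they also gave an offset on transcript length.

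Genes with at least 10 counts by edgeR's filter (13527) were fitted with TMM scaling and edgeR's quasi-likelihood test (edgeR 4.0.16, R 4.3.3) over all 18 libraries, with 1 coefficient for each targeted gene. Adjusted p-values are Benjamini-Hochberg values with a threshold of 0.05. Transcripts were fitted in the same way (53045 tested), and guides in a further fit with 1 coefficient each. The fits were tested on simulated data; the differential splicing test made mostly false calls there, and limma 3.58.1 on transcript shares did not. The alternatives include DESeq2 1.42.0.

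The gene lists and the genes described were chosen with earlier results of these data known. Named are CDKN1A, the 15 genes of smallest p that rose and that fell, the 10 of largest change in each direction among called genes of mean log2 CPM at least 1, the members of a list that passed (at most 4 of smallest p) or, where none did, the member of smallest p, and the tested neighbours of CDKN1A; other list members were named after their values were seen. Promoters are RefSeq sequences of GRCh38.p14. Depth was 11907197 to 17016094 counts a library. The floor of 3 counts covers counting error only. Some genes that the rule names are not reported here.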

Additional observations from a re-analysis of the deposited data

Results flagged for a closer look

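In 8 of 174 groups of 4 libraries, over 87 named genes, 1 library lay apart from the other 3 by Dixon's ratio; chance gives about 1 in 20. Among the CDKN1A libraries, CD70 measured 2.40 CPM in guide 1 replicate 2 (others 1.34 to 1.52). CCNB2 measured 61.4 CPM in guide 2 replicate 2 (others 66.4 to 67.1), and PPIL1 43.0 CPM in the same library (others 44.8 to 45.1). ITGA5 measured 465 CPM in guide 2 replicate 1 (others 447 to 450), and KRT8 55.2 CPM in guide 1 replicate 1 (others 57.8 to 58.2). The remaining 3 were all the library of control guide 1 replicate 1: HSPB1 at 361 CPM (others 312 to 320), KRT10 at 62.5 CPM (others 54.2 to 54.6) and MT-CO1 at 5280 CPM (others 5970 to 6110).

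The effect of the 2 CDKN1A guides differed in edgeR's test of guide 2 minus guide 1 for the named genes that follow. The differences were 0.61 for CDKN1A (adjusted p 0.00485), -0.27 for BDNF (0.0156), 1.51 for UNC5B (0.00442) and 0.77 for TRIB3 (9.18e-04). Why the guides differ was not tested.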

How the results depend on the processing

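The count of 271 called genes moved with the samples and the model. It was 588 with only the 8 control and CDKN1A libraries, 172 with a replicate block, 1172 with a coefficient per guide, 71 with a transcript length offset, 560 with DESeq2 and 1 with the libraries of a guide summed. It was 42 without control guide 1, 127 without CDKN1A guide 1 and 44 without CDKN1A guide 2. Leaving out 1 library gave 52 to 446: 52 without CDKN1A guide 2 replicate 2, 102 without guide 2 replicate 1, 117 and 99 without guide 1 replicates 1 and 2, 66 and 132 without control guide 1 replicates 1 and 2, 89 without control guide 2 replicate 1, and 446 without SPP1 guide 3 replicate 2. No pairing by replicate number was seen in the deviations, which correlated at -0.117 to 0.0733 over 36 pairs of guides. A correlation over all genes cannot exclude pairing that acts on some of them. The fall of CDKN1A was -0.66 without control guide 1 (adjusted p 0.0833), -0.78 with the libraries of a guide summed (0.316), and -0.88 to -0.67 with 1 library left out. The causes were not tested.

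Guide 1 called 292 genes against control guide 2 alone, and 157 to 620 with 1 library left out (157 and 185 without CDKN1A guide 1 replicates 2 and 1, 351 without control guide 2 replicate 1). Guide 2 called 194 to 868 (194 and 309 without its replicates 2 and 1, 474 without control guide 2 replicate 1). Against KDM1A the range was 1288 to 1839 (1288 without CDKN1A guide 2 replicate 2, 1346 without KDM1A guide 2 replicate 2), and against SPP1 848 to 1739 (848 and 860 without CDKN1A guide 2 replicates 2 and 1). Called transcripts numbered 16 with a count minimum of 50, 11 with only the 8 libraries, 20 with at least 10% of their gene's counts, and 2 to 6 with 1 library left out. Genes with changed usage numbered 25, 28 and 0 under those settings, 2 with limma and 113 to 163 with 1 library left out. Rises outnumbered falls in the 271 calls (147 and 124) but not with only the 8 libraries (280 and 308) or with a coefficient per guide (558 and 614).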
